A study of Homo sapiens with 192 samples.

Results

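The mRNA of 10 secreted factors was followed in 4 colorectal cancer (CRC) cell lines grown in 2D or in 3D. They comprise 4 ligands of the vascular endothelial growth factor (VEGF) family (VEGFA, VEGFB, VEGFC and PGF), the vasoactive peptides adrenomedullin (ADM) and endothelin 1 (EDN1), the secreted glycoproteins ANGPTL4 and STC2, and the chains A and B of platelet-derived growth factor (PDGFA and PDGFB). All 10 genes were chosen by name, from the functions known for them and with earlier results of these data known. All were matched by Ensembl identifier among the 58243 genes of the count files. HT29 and LS513 are microsatellite stable (MSS) CRC lines, whereas HCT116 and LS174T are microsatellite instable (MSI). Each line was grown in 2D or in 3D without any added agent, and 3 libraries were used per line and growth condition, which gave 8 groups and 24 libraries. HCT116 cells were kept in McCoy medium and the other lines in DMEM, so medium and line cannot be told apart for HCT116. Each group stands for a single established line, and the sources do not say how the 3D cultures for sequencing were prepared or whether the libraries of a group came from separate cultures.

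A cell that runs short of oxygen stabilizes the alpha subunits of the hypoxia-inducible factors (HIF), which pair with ARNT and bind short DNA elements near genes of glycolysis, pH control and blood vessel growth. VEGFA is the classical secreted product of this response. It acts on endothelial cells through the receptors KDR and FLT1 with the neuropilins as co-receptors, while VEGFC acts on lymphatic vessels through FLT4 and PDGF recruits pericytes and fibroblasts through PDGFRA and PDGFRB. In solid tumors these factors are released by the carcinoma cells and received mostly by the stroma.

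The sequencing depth was 18723942 to 34277421 counts per library (median 30777613.5). Levels are given as counts scaled to a common library total (CPM, with TMM factors). Single libraries are listed, or the mean ± SD of the n = 3 libraries of a group. A count of 3 or less in a library was regarded as the detection floor, which corresponds to 0.0875 to 0.160 CPM before the TMM factors. A gene was called changed at an adjusted p under 0.05 in the quasi-likelihood test of edgeR, with Benjamini-Hochberg adjustment over 19387 tested genes, and all adjusted p below come from that fit. Of the epithelial markers, EPCAM, CDH1, KRT8 and KRT18 were well above the floor in all 24 libraries, whereas VIL1 fell to 4 counts, KRT20 to 20 and CDX2 to 28 in the lowest library. Of 7 endothelial markers, CLDN5 and EMCN were at the floor in every library (at most 2 counts), CDH5 had at most 5 counts, TEK, VWF and PECAM1 had at most 24, 22 and 76, and ESAM was over the floor in all 24 libraries (30 to 2775 counts). Of 7 markers of fibroblasts and pericytes, COL1A2 had 0 counts in every library and COL3A1, DCN and LUM at most 2, whereas COL1A1 (at most 655 counts), PDGFRB (at most 21) and RGS5 (6 to 166) were detected. Of 4 leukocyte markers, CD3E had 0 counts and PTPRC at most 2, while CD14 and CD68 were detected. The summed endothelial level in 2D against 3D was 82.1 to 88.0 against 86.7 to 89.9 CPM in HT29, 7.25 to 8.85 against 9.63 to 13.5 in LS513, 7.61 to 8.05 against 8.85 to 10.04 in HCT116 and 1.11 to 1.14 against 1.47 to 1.71 in LS174T, so it was apart in all lines but HT29. The summed level of the fibroblast and pericyte markers was lower in 3D in HT29 (1.79 to 2.25 against 1.27 to 1.73 CPM) and LS513 (1.13 to 1.42 against 0.959 to 1.07) and overlapped in HCT116 (16.5 to 19.4 and 15.3 to 25.6) and LS174T (2.03 to 2.34 and 2.01 to 2.27). In contrast, the summed level of the 4 leukocyte markers was higher in 3D in each line (2D against 3D, 9.81 to 14.9 against 21.3 to 30.5 CPM in HT29, 18.0 to 20.5 against 61.7 to 91.9 in LS513, 9.20 to 13.5 against 36.1 to 47.2 in HCT116 and 2.08 to 3.83 against 5.07 to 6.56 in LS174T). CD68 (at most 91.8 CPM) and CD14 (at most 15.1 CPM) made up nearly all of the leukocyte sum. ESAM (at most 86.7 CPM) made up nearly all of the endothelial sum in HT29, since no other endothelial marker passed 2.29 CPM in any library. The part of endothelial cells, fibroblasts, pericytes and leukocytes in the results was not tested. Mitochondrial genes took 1.14 to 6.40% of the counts, and the highest share belonged to library 1 of HCT116 grown in 3D. Without that library, the log2 fold changes of HCT116 were 4.54 for ANGPTL4, 0.99 for ADM, 0.76 for VEGFA, 0.78 for STC2 and 0.57 for PDGFA, all still called (adjusted p at most 0.0214). Since these are bulk cultures, fewer cells of a type and less RNA per cell cannot be told apart.

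In each line, part of these factors was higher in 3D, and the set of genes called was not the same in the 4 lines. In HT29, 4 of the 10 genes were higher in 3D and 2 were lower, beside 21.1% and 19.6% of all tested genes. In LS513, 6 genes were higher, beside 13.7% of all genes, and 0 were lower, beside 9.9%. In HCT116, 5 genes were higher, beside 16.8%, and 0 were lower, beside 12.3%. In LS174T, 4 genes were higher, beside 13.1%, and 0 were lower, beside 9.15%. ANGPTL4 and ADM were higher in 3D in all 4 lines, which held for 3.14% of all tested genes, and 0 of the 10 were called lower in all 4 lines (2.46% of all genes). Of the 40 pairs of gene and line, 5 were at the floor (VEGFC in HT29, LS513 and HCT116, STC2 in HT29 and LS513), and of the other 35, 19 were called higher, 2 lower and 14 were not called. The 3D libraries lay wholly above the 2D libraries for 6 genes in LS174T (20.9% of all tested genes), 6 in LS513 (23% of all genes), 6 in HCT116 (22.8%) and 4 in HT29 (27.3%). They lay wholly below for 1 gene in LS174T (17.6%), 1 in LS513 (20% of all genes), 0 in HCT116 (17.6%) and 2 in HT29 (25.6%). The median log2 fold change over the 10 genes was 0.44 in HT29, 0.48 in LS174T and 0.78 in both HCT116 and LS513, and without the genes at the floor it was 0.44, 0.48, 0.65 and 1.08. The median over all tested genes lay between 0.00 and 0.02.

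**Figure D1:**
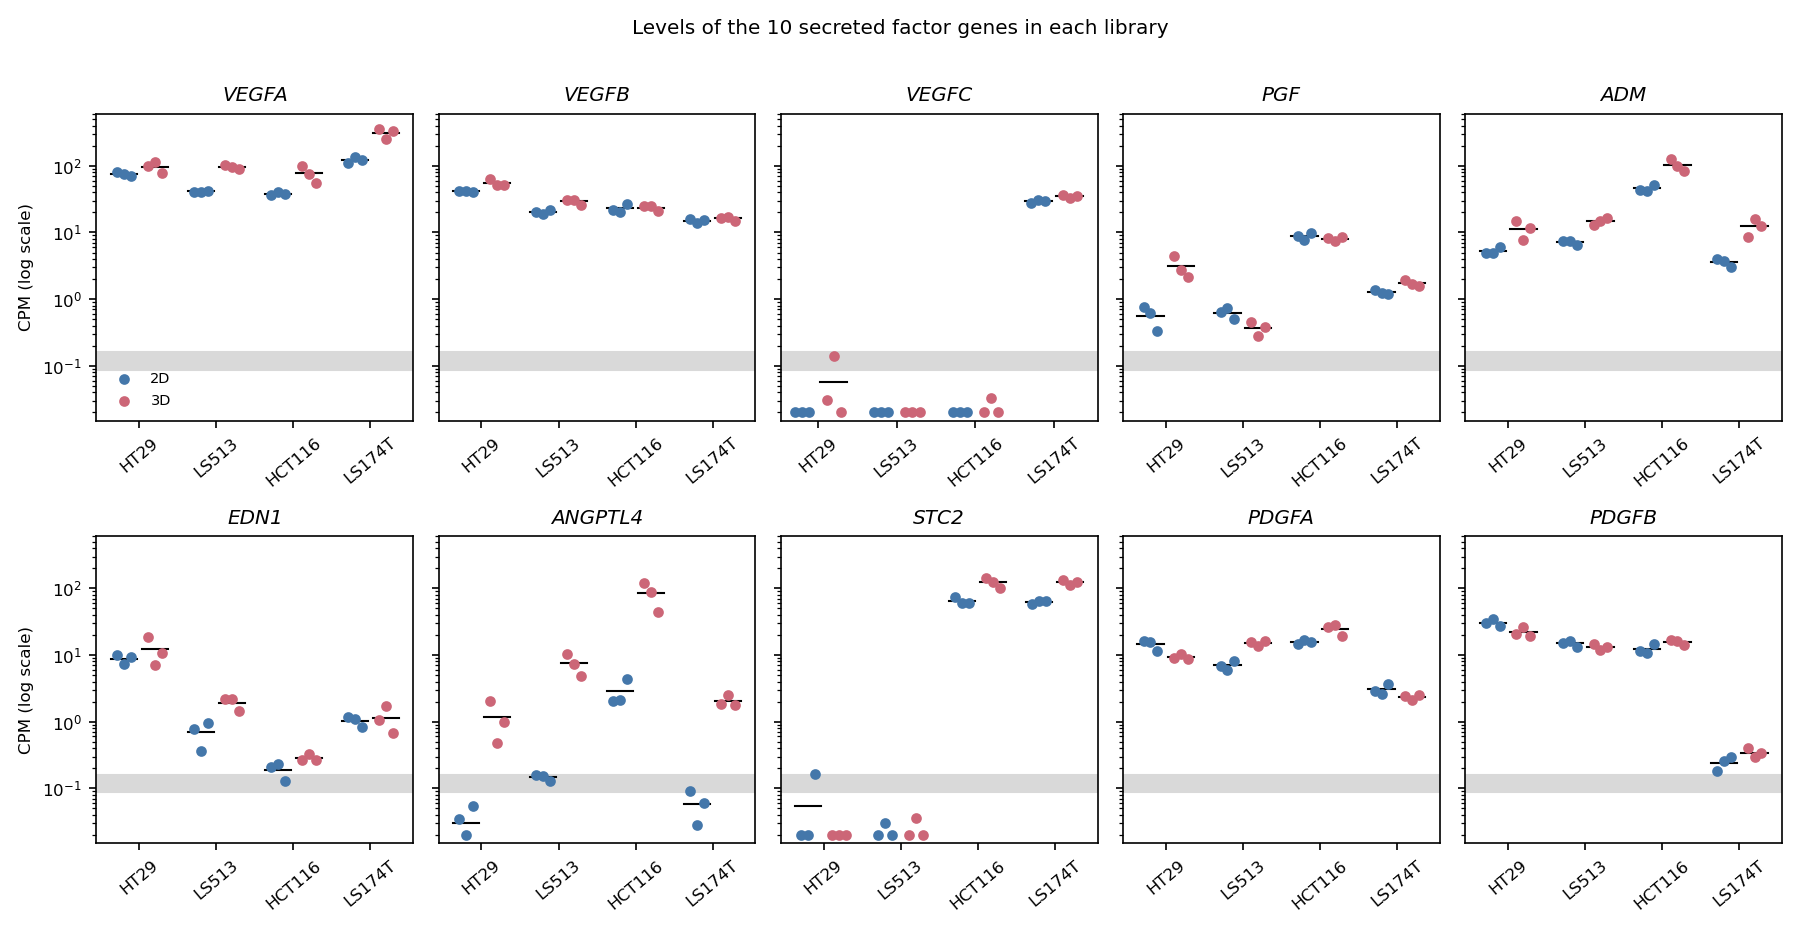
Level of each of the 10 genes in every library, in CPM on a log axis, by cell line (2D in blue, 3D in red, each point a library, black line the mean of 3). The grey band is the floor of 3 counts over the raw library totals, before the TMM factors, and libraries with 0 counts are drawn at 0.02 CPM. ANGPTL4 and ADM points lie higher in 3D than in 2D in all 4 lines. By counts, VEGFC passes the floor in LS174T and in 1 further library, of HT29 grown in 3D, and STC2 passes it in HCT116 and LS174T. On the CPM axis that VEGFC point of HT29 (0.138 CPM) lies within the band. An STC2 point of 3 counts in HT29 grown in 2D (0.164 CPM) lies just above the band.

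ANGPTL4 is a secreted inhibitor of lipoprotein lipase with roles in lipid use and vascular permeability, and it is induced by both HIF and PPAR factors. Its gene (ENSG00000167772) lies at chr19:8363289-8374373 on the plus strand of GRCh38. In HT29 grown in 2D it had 1, 0 and 1 counts, and in 3D its level was 2.02, 0.484 and 0.979 CPM. In LS513 it went from 0.161, 0.151 and 0.127 CPM in 2D, which is 4 or 5 counts per library, to 10.4, 7.32 and 4.78 CPM in 3D. In HCT116 the 2D libraries had 2.02, 2.10 and 4.40 CPM and the 3D libraries 119, 89.3 and 44.1 CPM. The LS174T libraries had 1 to 3 counts each in 2D and 1.84, 2.48 and 1.75 CPM in 3D. Thus ANGPTL4 was close to or at the floor in 2D in 3 of the 4 lines and the libraries of 2D and 3D did not overlap in any line. The ratio of the pooled counts of 3D over 2D, scaled by library size, was 46.1 in HT29 (95% exact interval 12.4 to 385, from 108 against 2 counts), 51.2 in LS513 (30.3 to 94.1), 30.1 in HCT116 (26.7 to 34.1) and 34.1 in LS174T (15.4 to 94.1, from 185 against 6 counts). These intervals cover counting error only. The fitted log2 fold change was 5.64 (SE 0.56, adjusted p = 1.94e-07) in LS513 and 4.89 (SE 0.39, adjusted p = 5.32e-09) in HCT116. In HT29 and LS174T the adjusted p were 3.07e-04 and 5.67e-05. The rise was not called different between the lines (interaction adjusted p = 0.904), yet the level reached in 3D differed widely, since HCT116 stood at 84.1 ± 37.7 CPM against 7.50 ± 2.81 in LS513, 2.02 ± 0.40 in LS174T and 1.16 ± 0.78 in HT29.

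The HIF complex recognizes a core of ACGTG or GCGTG, so the 250 bases before each RefSeq transcription start (GRCh38.p14) were searched for both cores on both strands. Windows were matched for 8 of the 10 genes (not VEGFA and PDGFB), with 14 windows in all, of which 11 held a core, and each of the 8 genes had at least 1 such window. A core was also found in 43.2% of the 35116 windows of all genes, and 47.4% of the genes had a core in at least 1 window, so the match is a description of the sequence and not a site of binding. For ANGPTL4, the gene with the largest rise, the stretch before this start is printed whole up to the first exon of ANGPTL4-201 in GENCODE 29 (chr19:8363905-8364150, plus strand). It lies outside annotated exons, but within the annotated gene, since other transcripts begin farther upstream. In addition, 25 bases around the cores are printed for ADM, which rose in all lines, STC2, which rose where it was detected, and VEGFB and VEGFC, for comparison. Cores are in capitals, and CACGT and CACGC are the same cores read on the other strand. The first base of the core lay 234 bases before the RefSeq start in ANGPTL4, 101 in ADM (chr11:10304962-10304986, plus strand), 61 in VEGFB (chr11:64234513-64234537, plus strand) and 59 in VEGFC (chr4:176792967-176792991, minus strand). STC2 had 3 cores, 235, 231 and 222 bases before the start (chr5:173328628-173328652, minus strand), and 3 or more cores were found in 7.76% of all windows. The ADM and STC2 sites lie inside first exons annotated by GENCODE 29, which begin upstream of the RefSeq start.
ANGPTL4: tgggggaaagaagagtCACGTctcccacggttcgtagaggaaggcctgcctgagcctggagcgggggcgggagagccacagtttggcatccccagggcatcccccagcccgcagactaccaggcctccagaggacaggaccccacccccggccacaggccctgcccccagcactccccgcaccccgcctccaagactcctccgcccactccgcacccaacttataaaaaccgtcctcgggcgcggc
ADM: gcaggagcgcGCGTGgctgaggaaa
STC2: acaCACGCACGCaaacGCGTGgccg
VEGFB: ggtggggagcGCGTGtctgggtcac
VEGFC: ccgggctcggCACGCtccctccctc
A core was thus present in genes that rose in every line and also in VEGFC. VEGFC was at the floor in HT29, LS513 and HCT116, so no rise could be seen there. In LS174T it was not called, although its 3D libraries lay wholly above its 2D libraries. The part of the cores in these levels was not tested.

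ADM encodes adrenomedullin, a peptide that dilates vessels and stabilizes the endothelial barrier. Its gene (ENSG00000148926) lies at chr11:10304680-10307397 on the plus strand. In HT29 it rose from 4.84, 4.85 and 5.97 CPM in 2D to 15.0, 7.57 and 11.7 CPM in 3D (log2 fold change 1.14, SE 0.22, adjusted p = 2.94e-04). In LS513 it rose from 7.34, 7.43 and 6.59 to 13.1, 15.0 and 16.3 CPM (1.05, SE 0.21, adjusted p = 7.89e-04). HCT116 had the highest levels, with 43.4, 42.2 and 51.7 CPM in 2D and 128, 99.0 and 84.8 CPM in 3D (1.18, SE 0.20, adjusted p = 1.10e-04). The rise in LS174T was from 3.98, 3.78 and 3.05 CPM to 8.68, 15.9 and 12.5 CPM (1.77, SE 0.22, adjusted p = 6.34e-06). The libraries of 2D and 3D did not overlap in any line. The interaction was not called (adjusted p = 0.275), so a larger rise in LS174T was not established. It was called when every gene with at least 1 count was kept (0.0377). HCT116 grown in 2D (45.8 ± 5.2 CPM) exceeded every 3D library of the other lines.

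VEGFA is the main mitogen and permeability factor of endothelial cells. Its gene (ENSG00000112715) lies at chr6:43770184-43786487 on the plus strand, and 188 of its 14431 exonic bases (1.30%) are shared with AL136131.3 on the opposite strand. In LS174T it rose from 110, 135 and 122 CPM in 2D to 359, 251 and 333 CPM in 3D, a log2 fold change of 1.36 (SE 0.16, adjusted p = 2.71e-06). In LS513 it rose from 41.1, 41.1 and 42.5 to 102, 96.1 and 90.4 CPM (1.21, SE 0.16, adjusted p = 8.63e-06). In HCT116 it rose from 36.0, 40.4 and 37.6 to 100.2, 74.5 and 55.5 CPM (1.01, SE 0.16, adjusted p = 6.91e-05), and library 1, with the highest mitochondrial share, was also the highest for VEGFA. HT29 differed, since its 2D libraries (79.4, 75.0 and 70.5 CPM) overlapped with its 3D libraries (99.7, 115 and 77.9 CPM), and the log2 fold change of 0.38 (SE 0.16, adjusted p = 0.0618) was not called. It was called with the size factors of DESeq2 (adjusted p = 0.0426), when HT29 was fitted alone (0.0271) and without library 4 of HT29 grown in 3D (0.0131). Leaving out any of several libraries of the other lines also gave a call, such as library 1 of HCT116 grown in 3D (0.0187). VEGFA in HT29 stayed without a call in 17 of 30 alternatives. The growth effect differed between the lines (interaction adjusted p = 0.0126), which held for 17.1% of all tested genes. This call was lost without library 1 of HT29 grown in 2D (adjusted p = 0.0530) and without library 4 of HT29 grown in 3D (0.0653). HT29 thus started from a 2D level of 74.9 ± 4.5 CPM, above the 2D levels of LS513 (41.6 ± 0.8) and HCT116 (38.0 ± 2.2), and in 3D these 3 lines overlapped with each other, whereas LS174T was the highest line in both conditions.

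VEGFB, a ligand of FLT1 linked to fatty acid uptake rather than vessel sprouting, was called higher in HT29 and LS513, by less than 1 on the log2 scale. Its gene (ENSG00000173511) lies at chr11:64234538-64238793 on the plus strand. HT29 libraries had 42.3, 42.5 and 41.1 CPM in 2D and 64.2, 51.8 and 50.9 CPM in 3D (log2 fold change 0.41, SE 0.12, adjusted p = 0.00754). LS513 libraries had 20.3, 19.0 and 22.0 CPM in 2D and 31.0, 30.5 and 26.0 CPM in 3D (0.51, SE 0.12, adjusted p = 0.00272). These were the MSS lines, and in both the libraries of 2D and 3D did not overlap. In the MSI lines the log2 fold change was 0.03 (95% interval -0.20 to 0.26) in HCT116 and 0.12 (-0.12 to 0.35) in LS174T, with overlapping libraries. However, the interaction was not called (adjusted p = 0.104), so a difference between the lines was not established. It was called without library 3 of LS513 grown in 3D (0.0497).

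VEGFC, the ligand of lymphatic growth, was clearly detected in LS174T alone among these lines. Its gene (ENSG00000150630) lies at chr4:176683538-176792727 on the minus strand. LS174T had 27.4, 30.9 and 29.9 CPM in 2D and 36.8, 33.0 and 35.3 CPM in 3D, and the log2 fold change of 0.25 (SE 0.17, adjusted p = 0.318) was not called although the libraries did not overlap. All 6 libraries of LS513 had 0 counts, as did the 2D libraries of HT29 and HCT116, and the highest count elsewhere was 4 in a library of HT29 grown in 3D. Against a floor of 3 counts per library, the 2D level of LS174T was at least 238-fold higher than in HT29, at least 313-fold higher than in LS513 and at least 323-fold higher than in HCT116.

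PGF, placental growth factor, has FLT1 as its only receptor tyrosine kinase. Its gene (ENSG00000119630) lies at chr14:74941834-74955784 on the minus strand. It rose only in HT29 by the test, from 22, 18 and 6 counts per library in 2D (0.754, 0.619 and 0.329 CPM) to 148, 79 and 60 counts in 3D (4.46, 2.73 and 2.18 CPM), a log2 fold change of 2.40 (SE 0.27, adjusted p = 4.04e-07). In LS513 the value was -0.73 (SE 0.33, adjusted p = 0.115), with 16 to 24 counts in 2D and 8 to 13 in 3D. The levels of HCT116, the highest of the lines, were 8.83 ± 1.09 CPM in 2D and 8.06 ± 0.62 CPM in 3D (-0.13, adjusted p = 0.674). In LS174T they were 1.26 ± 0.10 and 1.75 ± 0.20 CPM (0.47, adjusted p = 0.163). The growth effect differed between the lines (interaction adjusted p = 1.65e-05). Within the VEGF family, HT29 thus had calls for PGF and VEGFB in the main fit. VEGFA was not called there, but this held in only 17 of 30 alternatives, so a contrast with VEGFB was not established.

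**Figure D2:**
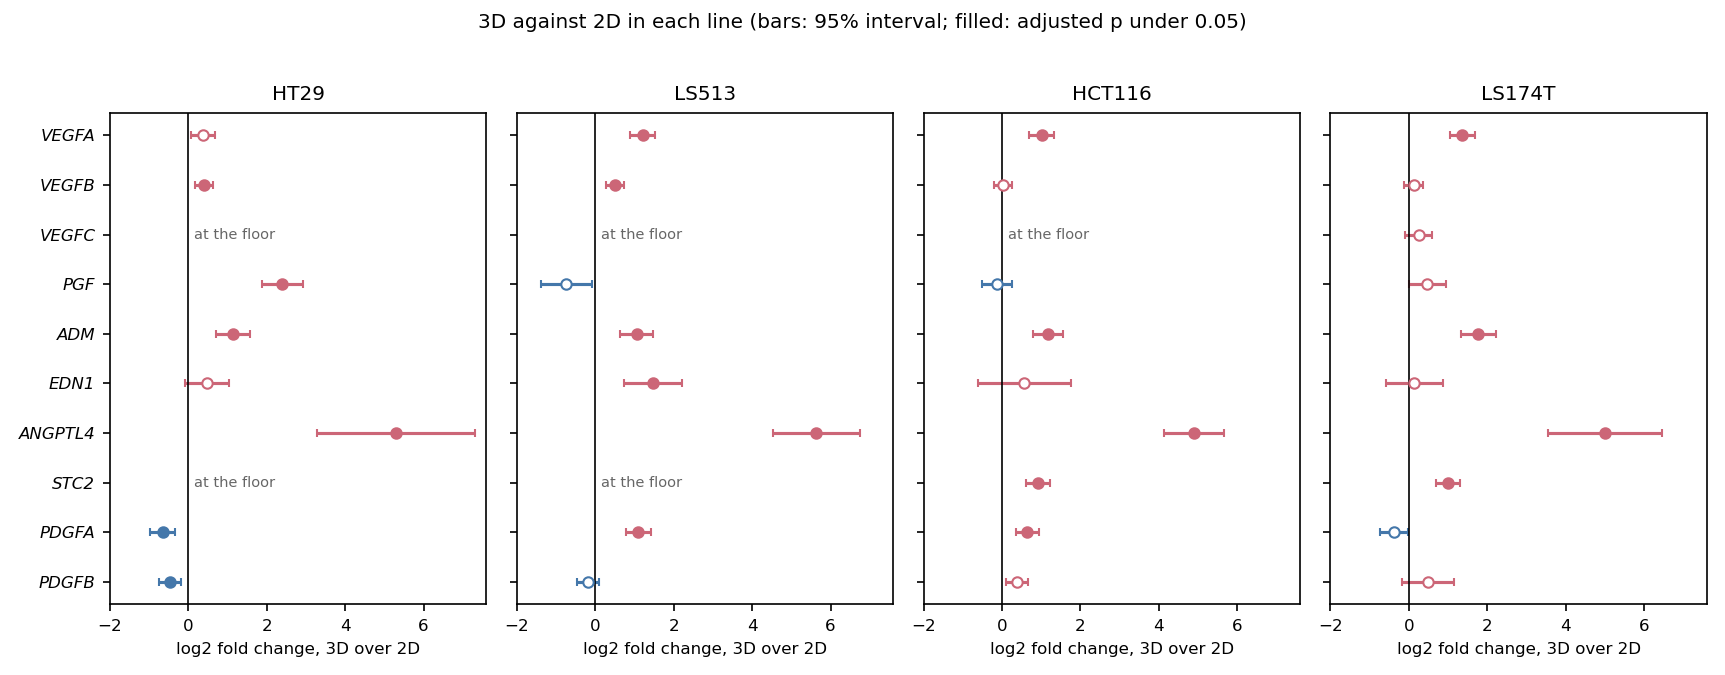
Log2 fold change of 3D over 2D for each gene in each line, with 95% intervals from edgeR. Filled points have an adjusted p under 0.05, red is higher and blue lower in 3D, and pairs at the detection floor carry no point. ANGPTL4 has the largest value in all 4 lines, and its fitted value in HT29 and LS174T, with 2D libraries at the floor, depends on the prior count, and PDGFA lies on opposite sides of 0 in HT29 and LS513.

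The PDGF chains form the dimers that act on mesenchymal cells. PDGFA (ENSG00000197461, chr7:497258-520296, minus strand) changed in opposite directions. In HT29 it fell from 16.2, 15.9 and 11.6 CPM in 2D to 9.02, 10.2 and 8.56 CPM in 3D (log2 fold change -0.66, SE 0.16, adjusted p = 0.00215). In LS513 it rose from 6.89, 6.01 and 8.14 to 15.5, 13.5 and 16.1 CPM (1.10, SE 0.16, adjusted p = 2.43e-05). In both lines the 2D and 3D libraries did not overlap. In HCT116 it rose from 14.6, 16.5 and 15.8 to 26.5, 27.9 and 19.1 CPM (0.65, SE 0.15, adjusted p = 0.00292). In LS174T the 3D libraries (2.42, 2.11 and 2.52 CPM) lay below the 2D libraries (2.90, 2.64 and 3.61 CPM), but the log2 fold change of -0.37 was not called (adjusted p = 0.147). The interaction was called (adjusted p = 1.12e-05), and a gene called higher in 1 line and lower in another was found among 2.88% of all tested genes. PDGFA was the only one of the 10 genes with calls in opposite directions.

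PDGFB (ENSG00000100311, chr22:39223359-39244751, minus strand) was lower in 3D in HT29 alone by the test, with 30.6, 34.1 and 27.1 CPM in 2D and 20.5, 26.7 and 19.3 CPM in 3D (log2 fold change -0.47, SE 0.14, adjusted p = 0.0105). The 2 groups lay next to each other without overlap, and the call was lost without library 2 of HT29 grown in 2D (adjusted p = 0.0848) and without library 1 (0.0664) or 4 (0.0863) of HT29 grown in 3D. The values were -0.18 (adjusted p = 0.420) in LS513 and 0.38 (adjusted p = 0.0518) in HCT116. LS174T had only 6 to 13 counts per library. The interaction was called (adjusted p = 0.0153), but not without library 2 of HT29 grown in 2D (0.0540) or library 4 of HT29 grown in 3D (0.0509). HT29 was thus the line in which both PDGF chains were called lower.

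STC2, stanniocalcin 2, is a secreted glycoprotein that inhibits the protease PAPP-A and is induced by hypoxia and by stress of the endoplasmic reticulum. Its gene (ENSG00000113739) lies at chr5:173314713-173329503 on the minus strand. It was split by line, with 0 to 3 counts per library in the MSS lines HT29 and LS513 and 1899 to 4339 counts in the MSI lines HCT116 and LS174T. In HCT116 it rose from 73.3, 61.1 and 60.9 CPM in 2D to 144, 124 and 102 CPM in 3D (log2 fold change 0.92, SE 0.15, adjusted p = 1.51e-04). In LS174T it rose from 57.9, 64.0 and 65.4 to 133, 113 and 125 CPM (0.99, SE 0.15, adjusted p = 1.33e-04). The levels of the 2 MSI lines overlapped in 2D and again in 3D, and in each the 2D and 3D libraries were apart. With 2 lines of each kind, a difference by microsatellite status cannot be told apart from a difference between lines. Against a floor of 3 counts per library, the 3D level was at least 1220-fold higher in HCT116 and at least 1227-fold higher in LS174T than in HT29, where the 3D libraries had 0 counts.

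EDN1 encodes endothelin 1, a vasoconstrictor peptide. Its gene (ENSG00000078401) lies at chr6:12290363-12297194 on the plus strand. It rose in LS513 from 0.772, 0.363 and 0.950 CPM in 2D (12 to 30 counts) to 2.18, 2.20 and 1.42 CPM in 3D (41 to 62 counts), a log2 fold change of 1.48 (SE 0.37, adjusted p = 0.00558). HT29 had the highest level, 8.85 ± 1.34 CPM in 2D and 12.3 ± 6.0 CPM in 3D, but its 3D libraries were spread over 18.8, 7.09 and 10.8 CPM and overlapped with those of 2D (0.47, SE 0.28, adjusted p = 0.193). This value ranged from 0.05 to 0.80 with each library left out, and was called without library 3 of the 3D group (0.0292) and when every gene with at least 1 count was kept (0.0424). In LS174T the value was 0.14 (adjusted p = 0.837) and in HCT116 only 4 to 10 counts were found per library. The interaction was not called (adjusted p = 0.255), except when every gene with at least 1 count was kept (0.0376).

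The lines differed in all 10 genes within 2D and within 3D (adjusted p at most 1.25e-08 in 2D and at most 1.59e-11 in 3D), as did 91.7% of all tested genes in each condition. By group means, LS174T had VEGFC and the highest VEGFA, HCT116 the highest ADM, PGF, ANGPTL4 and PDGFA, and HT29 the highest VEGFB, PDGFB and EDN1. For PDGFA in 2D, the libraries of HCT116 (14.6 to 16.5 CPM) overlapped with those of HT29 (11.6 to 16.2 CPM). The highest STC2 was shared by LS174T and HCT116 grown in 3D (124 ± 10 and 123 ± 21 CPM), whose libraries overlapped, and LS513 led for none of the 10 genes. For comparisons between genes, CPM was divided by gene length, and the outcome depended on which length was used. Per kilobase of merged exons, VEGFB led in HT29 grown in 2D (27.2 CPM per kilobase against 5.19 for VEGFA), whereas with the median length of the protein-coding transcripts VEGFA led (68.2 against 42.9). In LS174T grown in 3D, VEGFA, STC2 and VEGFC were the top 3 genes with all 3 lengths tried, with 21.8, 20.2 and 14.5 CPM per kilobase of merged exons. In HCT116 grown in 3D the top 3 were ADM, ANGPTL4 and STC2, in an order that changed with the length.

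The hypoxia reference genes were then set beside these factors. This list of 16 intracellular or membrane genes contains none of the 10 factors. It was called higher in 3D for 16 genes in LS174T, 15 in HCT116, 14 in LS513 and 13 in HT29, and 0 were called lower, with median log2 fold changes of 1.84, 1.61, 1.63 and 1.25. Of all tested genes, 13.1%, 16.8%, 13.7% and 21.1% were called higher in these lines. NDRG1, a stress-induced gene of the HIF response, rose in all 4 lines. Its mean went from 43.9 ± 8.2 to 901 ± 248 CPM in HCT116, and HT29 had 14.6 ± 1.2 CPM in 2D and 295 ± 97 CPM in 3D. CA9, the membrane carbonic anhydrase, also rose in all 4 lines and reached 417 ± 110 CPM in LS174T grown in 3D. In HT29, SLC2A1 (848 ± 75 and 868 ± 127 CPM), AK4 (15.4 ± 2.6 and 19.2 ± 1.2 CPM) and BNIP3, at the floor with at most 2 counts, were not called. AK4 was also not called in LS513 and HCT116, nor was BNIP3 in LS513, although VEGFA was called in both of these lines. The mean of log2(CPM + 1) over the 16 genes was 4.86 ± 0.02 in 2D and 6.15 ± 0.19 in 3D in HT29, 4.65 ± 0.02 and 6.31 ± 0.21 in LS513, 4.90 ± 0.08 and 6.73 ± 0.19 in HCT116, and 5.40 ± 0.07 and 7.45 ± 0.04 in LS174T. The 2D and 3D libraries were apart in every line. In HT29, LS513 and HCT116 the 3D libraries stood in the same order for ANGPTL4 as for this mean, whereas in LS174T the order was opposite, with library 2 the highest for ANGPTL4 and the lowest for the reference genes. With 3 libraries per group, such an order is a description. Of the HIF subunits, HIF1A mRNA was lower in 3D in HT29 (119 ± 5 against 72.2 ± 8.2 CPM, log2 fold change -0.72, adjusted p = 4.14e-04). It was also called lower in HCT116 (-0.39, adjusted p = 0.0447) and LS174T (-0.41, adjusted p = 0.0427). Leaving out library 2 of HCT116 grown in 2D (0.197) or library 2 of LS174T grown in 3D (0.265) ended these calls, as did leaving out several others of the 24 libraries. EPAS1 was near the floor in LS174T (0.176 ± 0.031 CPM in 2D) and 34.2 to 122 CPM on average in 2D in the other lines. It was called higher in HCT116 (0.43, adjusted p = 0.0345), but not without library 3 of the 2D group (0.209) or library 2 of the 3D group (0.182), among others.

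**Figure D3:**
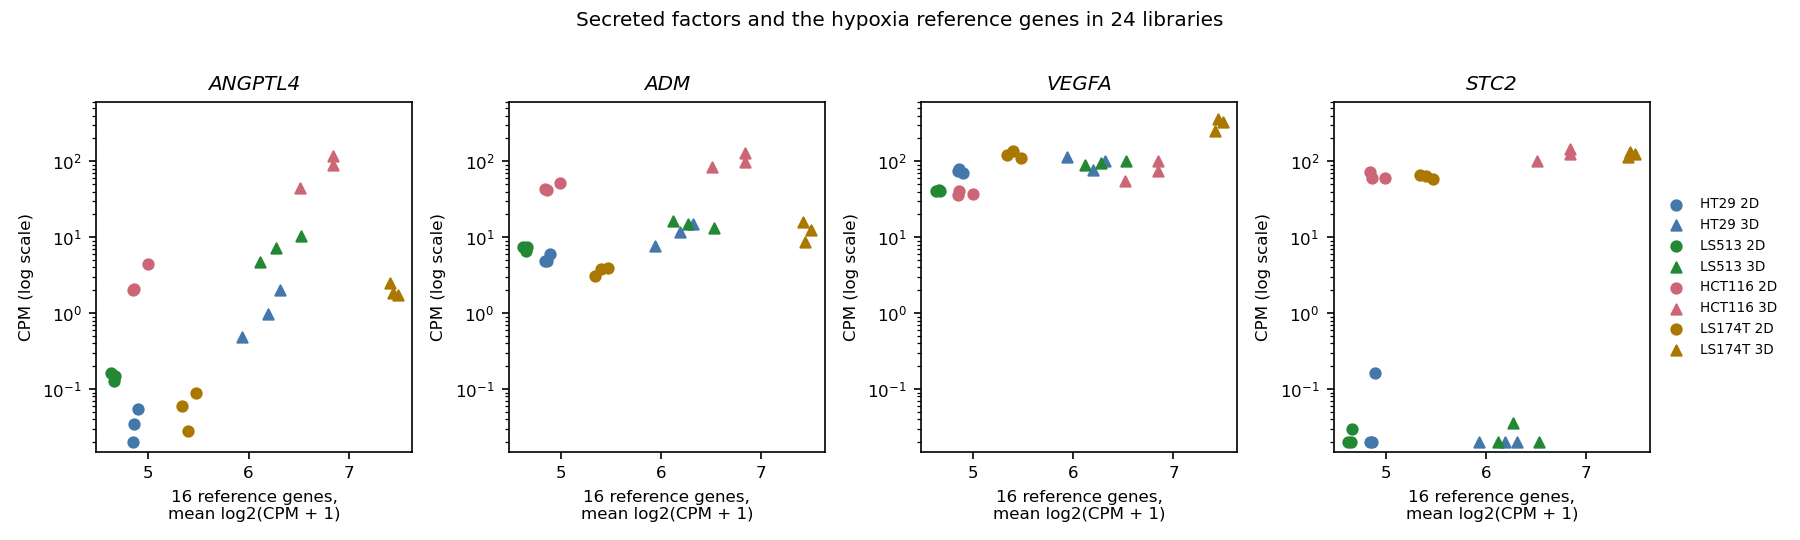
CPM of ANGPTL4, ADM, VEGFA and STC2 (log axis) against the mean log2(CPM + 1) of the 16 hypoxia reference genes, for the 24 libraries (circles 2D, triangles 3D, colour by line; 0 counts drawn at 0.02 CPM). Within each line the 3D libraries lie to the right of the 2D libraries, and at the same growth condition HCT116 lies above the other lines for ANGPTL4 and ADM.

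Other known inducers were described in the same way. The counts below stand beside 21.1% of all tested genes called higher and 19.6% lower in HT29, and 13.7% and 9.9% in LS513. For HCT116 the shares were 16.8% and 12.3%, and for LS174T 13.1% and 9.15%. Of 6 PPAR target genes, 4 were called higher and 1 lower in HT29, 4 higher in LS513, 2 higher and 1 lower in HCT116 and 3 higher in LS174T, with FABP1 (6.25 ± 2.88 to 128 ± 12 CPM in LS174T) among them. Of 8 targets of ATF4 and the unfolded protein response, 7 were called higher in LS513, 3 in each of the other lines, and 2 were lower in HT29, where HSPA5 fell from 916 ± 88 to 524 ± 11 CPM. ATF3 was the member of this list called higher in all 4 lines, although in HCT116 (adjusted p = 0.0345) leaving out any of the 6 libraries of that line ended the call (up to 0.115). STC2 was at the floor in LS513 in both conditions, with 0 or 1 counts per library, so no change of it could be seen beside these calls. Whether STC2 responds with these targets was not tested.

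The genes most like each factor were taken from Pearson's correlation of log2 CPM over the 24 libraries, after centring each line on its own mean, so that the libraries shared the 2D and 3D contrast. The nearest to ANGPTL4 were ALDOC (r = 0.984), C4orf3 (0.983) and CA9 (0.978). By Spearman's correlation they stood only at ranks 89, 109 and 15, and ANGPTL4 was close to or at the floor in 2D in HT29, LS513 and LS174T. VEGFA was nearest to HIF1A-AS2 (0.953), SCNN1A (0.936) and KDM3A (0.935), and ADM to JUND (0.948), FAM162A (0.946) and QSOX1 (0.946). ALDOC, CA9 and KDM3A belong to the hypoxia reference list. STC2 was nearest to TERC (0.914), PDGFA to NPEPPS (0.896), PGF to ADH6 (0.925), VEGFB to HPS1 (0.915) and VEGFC to GCGR (0.877). By Spearman's correlation ADH6 stood at rank 44 for PGF. STC2 was at the floor in HT29 and LS513, and VEGFC in HT29, LS513 and HCT116, so their values rest mostly on the remaining lines. The lowest first values were those of EDN1 (URGCP, 0.832) and PDGFB (USP32P2, 0.774).

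Most receptors of these ligands were hardly detectable in the CRC cells themselves. Of 13 receptors and co-receptors, FLT1 and RAMP3 had 0 counts in all 24 libraries, PDGFRA at most 1, EDNRB at most 2, and FLT4 and RAMP2 at most 6. PDGFRB was over the floor in 18 of the 24 libraries, but with at most 21 counts (0.740 CPM). KDR, the main VEGFA receptor, was found only in HCT116, with at most 33 counts and a mean of 0.621 ± 0.339 CPM in 2D and 0.663 ± 0.205 CPM in 3D. EDNRA was likewise over the floor only in HCT116 (2.94 ± 0.19 and 1.84 ± 0.39 CPM), the line with the lowest EDN1. The neuropilin NRP1 was present in all lines. In HT29 it had 33.7 ± 8.5 CPM in 2D and 9.91 ± 1.62 CPM in 3D (log2 fold change -1.77, SE 0.19, adjusted p = 2.79e-07) and in HCT116 it rose from 7.68 ± 1.86 to 13.0 ± 2.1 CPM (0.76, SE 0.19, adjusted p = 0.00473). NRP2 also fell in HT29, from 17.1 ± 10.9 to 2.64 ± 0.84 CPM (-2.70, adjusted p = 1.25e-06). The ADM receptor is CALCRL together with RAMP2 or RAMP3, while CALCRL with RAMP1 binds the related peptide CGRP. CALCRL was 1.62 ± 0.03 and 1.31 ± 0.15 CPM in HT29 and 0.702 ± 0.195 and 1.23 ± 0.07 CPM in HCT116, with 0 counts in LS513 and LS174T. RAMP1 rose in LS174T from 2.78 ± 0.21 to 11.8 ± 5.0 CPM (2.08, adjusted p = 7.91e-07) and in HT29 from 0.648 ± 0.161 to 2.41 ± 0.50 CPM (1.89, adjusted p = 5.04e-05). In HCT116, CALCRL (0.80, adjusted p = 0.0324) and RAMP1 (0.57, adjusted p = 0.0356) were called higher, but leaving out any of 5 of the 6 libraries of this line ended each call (up to 0.147 and 0.174). In all, of 7 receptors tested, 1 was called higher and 2 lower in HT29, beside 21.1% and 19.6% of all tested genes. In LS513, 0 were called either way, beside 13.7% and 9.9%. In HCT116, 3 were higher, beside 16.8%, and in LS174T 1 was higher, beside 13.1%.

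**Figure D4:**
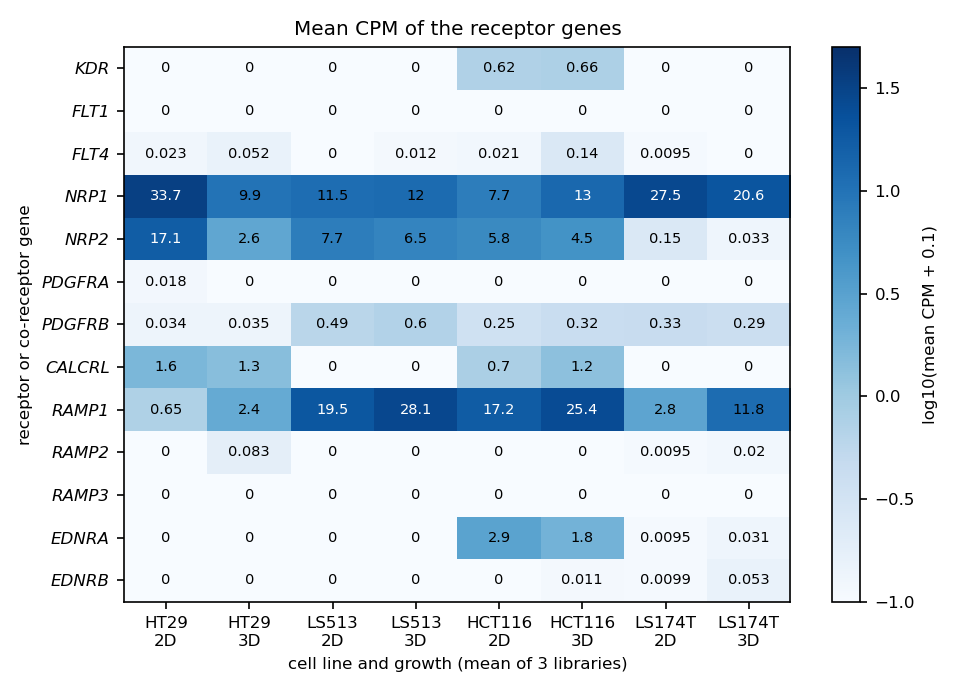
Mean CPM (3 libraries) of 13 receptor and co-receptor genes in each line and growth condition, with darker cells for higher log10(mean CPM + 0.1). NRP1 and RAMP1 were present in all lines, KDR and EDNRA in HCT116, and FLT1 and RAMP3 had 0 counts throughout.

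Among 12 other ligands of the same families, 10 could be tested. In HT29, 0 were called, in LS513 2 were higher, in HCT116 4 were higher and 1 lower, and in LS174T 2 were higher, beside the shares of all genes given above (16.8% higher in HCT116 and 13.1% in LS174T). The call of ADM2 in HCT116 (adjusted p = 0.04998) held in 7 of 30 alternatives. ADM2, a relative of adrenomedullin, had 3.28 ± 0.17 CPM in 2D and 16.6 ± 3.9 CPM in 3D in LS513 (log2 fold change 2.34, adjusted p = 1.38e-07). EDN2, endothelin 2, rose from low levels in HCT116 (0.0826 ± 0.0503 to 0.629 ± 0.15 CPM, adjusted p = 4.63e-05) and in LS174T (0.282 ± 0.081 to 1.32 ± 0.34 CPM, adjusted p = 7.70e-05). STC1, of the same family as STC2, was also called higher in LS174T (log2 fold change 5.31, adjusted p = 2.29e-04). That call held in 28 of 28 alternatives. FGF2 was the only one called lower, in HCT116 (21.7 ± 4.5 to 11.0 ± 2.2 CPM, -0.98, adjusted p = 0.00459).

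Of 14 genes that process these ligands or are acted on by them, 10 were tested, of which 1 was higher and 2 lower in HT29, 4 higher in LS513, 5 higher in HCT116, and 3 higher and 1 lower in LS174T. Of all tested genes, 21.1% were called higher and 19.6% lower in HT29, and 13.7% and 9.9% in LS513. The shares were 16.8% and 12.3% in HCT116 and 13.1% and 9.15% in LS174T. LPL, the lipase that ANGPTL4 inhibits, had 21.6 ± 3.2 CPM in 2D and 42.5 ± 3.9 CPM in 3D in LS174T (log2 fold change 0.97, adjusted p = 8.54e-04). The plasminogen activators PLAU (4.13 ± 1.31 to 0.715 ± 0.257 CPM, adjusted p = 1.53e-08) and PLAT (1.71 ± 0.72 to 0.0579 ± 0.0442 CPM, adjusted p = 3.52e-07) fell in HT29. The 3D mean of PLAT lay below the floor range of 0.0875 to 0.160 CPM, so the size of its fall is uncertain. However, PLAU was called higher in LS174T (0.81, adjusted p = 6.05e-04) and HCT116 (0.43, adjusted p = 0.0287), as was PLAT in HCT116 (0.87, adjusted p = 0.00991). Of 12 inhibitors of vessel growth, 10 were tested, of which 2 were higher and 2 lower in HT29, 3 higher and 1 lower in LS513, 4 higher and 1 lower in HCT116, and 1 higher and 2 lower in LS174T. In HT29 these counts are close to the shares of all genes (21.1% and 19.6%). The call of VASH2 as lower in HCT116 (adjusted p = 0.0485) held in 15 of 30 alternatives, and that of SEMA3B as higher in LS174T (0.0477) in 11 of 30. TIMP2, an inhibitor of matrix proteases, fell in HT29 from 42.7 ± 1.8 to 20.8 ± 4.2 CPM (-1.03, adjusted p = 3.45e-06) and rose in HCT116 from 58.3 ± 5.5 to 97.9 ± 10.4 CPM (0.75, adjusted p = 1.86e-04). It was also called higher in LS513 (0.70, adjusted p = 4.96e-04). SEMA3A was called lower in HT29 (-1.73, adjusted p = 1.84e-06), LS513 (-0.65, 0.0134) and LS174T (-0.59, 0.0303, held in 25 of 30 alternatives). In HCT116 it was called higher (0.83, adjusted p = 0.00588). SEMA3B, a semaphorin that binds neuropilins, rose from 13.7 ± 3.2 CPM in 2D to 69.6 ± 20.4 CPM in 3D in LS513 (2.34, adjusted p = 9.30e-06) and in HCT116 from 3.10 ± 0.29 to 17.7 ± 10.1 CPM (2.51, adjusted p = 1.16e-05).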

How the data were processed

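Poly(A) RNA of the 4 CRC lines was sequenced as single reads from stranded libraries. The authors trimmed reads with Trim Galore 0.4.1, aligned them with STAR, removed reads with more than 1 match and counted exon overlaps per gene with HTSeq 0.5.3, and they deposited raw counts per technical replicate, without normalization. The strand option of the counting is not given in the sources used here, so reads of genes that overlap on opposite strands may not be separated. The identifiers follow Ensembl 91 (GRCh38), and 99.5% were found in GENCODE 29, which gave positions and lengths. Another build named in the submitters' notes was not used.

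The 8 technical replicates of a library (7 for 1 library of HT29 grown in 3D, the other not analysed here) were summed. Across genes they differed no more than counting error (median chi-square over degrees of freedom 0.905 to 0.933). In R 4.3.3, edgeR 4.0.16 was run with filterByExpr, TMM and its robust quasi-likelihood model, which took all 24 libraries at once with a mean for each of 8 groups, and the pipeline was tested on simulated data. P-values measure the spread between these libraries, which may be technical. SE is the log2 fold change divided by the root of F. Exact intervals are Clopper-Pearson. Promoter windows come from RefSeq.

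The 10 genes and the lists set beside them were chosen with earlier results of these data known. The rule named all 10 genes, their 3 most similar genes, all receptors, genes called alike in all 4 lines and, from each list, up to 2 genes per line and direction with the smallest adjusted p. EPAS1, SLC2A1, BNIP3 and AK4 were added after their values were seen. Alternatives were DESeq2 1.42.0 and its size factors, all genes with a count, a replicate block, technical replicate d left out, each line alone, the study's fold cutoffs, other gene lengths and each library left out.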

Additional observations from a re-analysis of the deposited data

Results flagged for a closer look

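The effect of 3D growth differed between the 4 lines for 4 of the 10 genes, by edgeR's test of the interaction itself, beside 17.1% of all tested genes. PGF (adjusted p = 1.65e-05) was called higher in HT29 alone, with a log2 fold change of 2.40 against -0.73 in LS513, -0.13 in HCT116 and 0.47 in LS174T. PDGFA (adjusted p = 1.12e-05) was called lower in HT29 (-0.66) and higher in LS513 (1.10) and HCT116 (0.65), with -0.37 in LS174T. VEGFA (adjusted p = 0.0126) had 0.38 in HT29, which was not called, against 1.01 to 1.36 in the other lines. PDGFB (adjusted p = 0.0153) was called lower in HT29 (-0.47), with -0.18 in LS513, 0.38 in HCT116 and 0.49 in LS174T, where counts were near the floor. In each of the 4 genes HT29 stood at an end of the range of the lines.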

How the results depend on the processing

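The calls of ANGPTL4 and ADM in all 4 lines, of VEGFA and PDGFA in LS513 and HCT116, of VEGFA in LS174T, of PGF in HT29, of STC2 in HCT116 and LS174T and of EDN1 and VEGFB in LS513 were kept under every alternative that uses an adjusted p alone. With the study's fold cutoffs (log2 under -0.5 or over 1.5), 2 of the 10 genes passed in LS174T, 3 in HT29 and 1 each in HCT116 and LS513, and 1407, 3371, 1800 and 1557 of all genes. Same-numbered 2D and 3D libraries did not deviate together (r from -0.146 to 0.0938), so the numbers give no pairing. A replicate block left 3 of the 10 genes called in HT29 (VEGFB 0.0548, PDGFA 0.0564 and PDGFB 0.275 were lost) and 1698 genes with an interaction, and VEGFA (0.187) and PDGFB (0.210) lost theirs. In HT29 only the numbers 1 and 3 occur in both conditions, so its effect under the block rests on those libraries. Fitting LS174T alone gave 1648 genes. VEGFB in HCT116 turned to -0.00168 when every gene with at least 1 count was kept. With each library left out it ranged from -0.0601 (without library 2 of 2D) to 0.13, and EDN1 in LS174T from -0.24 (without library 2 of 3D) to 0.41. VEGFA in HT29 became called with size factors (0.0426), all genes (0.00307), DESeq2 (0.0393) and HT29 alone (0.0271), and PDGFB in HCT116 with size factors (0.0471) and DESeq2 (0.0423). Left out one by one, libraries changed the genes called to 2083 to 6038 in LS174T, 3747 to 6836 in HCT116, 2784 to 5643 in LS513 and 6372 to 8751 in HT29. The count fell by more than 1.5 times without library 2 of LS174T in 3D (2083), any library of LS174T in 2D (2616 to 2781), library 1 of HCT116 in 2D (3747) and library 2 of LS513 in 2D (3030) or 3D (2784). Of the 10 genes, 5 to 8 were called in HT29, 5 to 6 in HCT116, and without change 6 in LS513 and 4 in LS174T, and interactions from 2707 to 4247. Size factors moved the median of all genes by at most 0.04 (HT29). Depth limited ANGPTL4 in 2D in HT29, LS513 and LS174T, PDGFB in LS174T and EDN1 in HCT116.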
